A study of Mus musculus with 8 samples.

Results

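The regions described here are H3K36me3 domains that also carry H3K36me2, in C3H10T1/2 cells, a mesenchymal progenitor line from C3H mouse embryos. A domain was taken when it shared at least 1 base with a listed H3K36me2 peak, and chromosomes 13 and 18 were left out. This gave 321 of the 4999 listed H3K36me3 domains. They are 6.84% of the 4696 domains on the chromosomes that were kept, and the 4375 other domains on those chromosomes serve as the comparison. The K36M group expressed FLAG-HA-tagged histone H3.3 with methionine in place of lysine 36. The WT group expressed wild-type H3.3 with the same tag. Both were stable lines at passages 10 to 15, and the labels do not say whether either line is a single clone or from which promoter the histone was expressed. The endogenous histone genes are not described as altered, so the tagged histone is taken to stand beside the cell's own H3. Every sample received chromatin of Drosophila S2 cells as a spike-in (5% of the mouse amount) before precipitation. This method, called ChIP-Rx, lets the level of a mark be compared between samples. The series has 8 samples, 1 per group, made up of 3 marks in K36M and in WT cells and an input of each.

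H3K36me3 is written by SETD2, which travels with elongating RNA polymerase II, and it marks the bodies of transcribed genes. H3K36me2 is written mainly by the NSD enzymes and by ASH1L, and it spreads over active genes and the regions between genes. SETD2 adds the third methyl group to lysines that already carry methyl groups, so both marks are steps of 1 pathway on the same residue. Histone H3 with methionine at position 36 inhibits these methyltransferases. In the domains described here, listed regions of both marks meet. The enzymes were not measured, nor was H3K36me2 outside its listed peaks.

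The deposited value of a region is the number of reads in it, scaled to the Drosophila reads. Each mark has 1 K36M and 1 WT library, so no difference below has a replicate check and no test between genotypes was made. Counted in steps of each library's scaling factor, the domains held a median of 1028 reads in K36M and 1889 in WT, and at least 28 and 65. The 95% intervals given for single regions are exact Clopper-Pearson intervals from these reads and cover counting error only. Cell type markers were not checked, since the files hold no expression. Positions are those of the deposited tables (mm9), and no gene name is given because the gene annotation used here belongs to another build. Each value belongs to a whole domain or a whole peak, and the shared stretch itself was not measured.

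Edge overlaps were the most common kind. An overlap was called inside when both ends of the H3K36me2 peak lay within the domain, covered when the peak reached or passed both ends of the domain, and edge when it reached or passed 1 end. By this rule 81 domains had H3K36me2 inside, 184 (57.3%) at an edge and 43 were covered. Another 13 domains had both inside and edge peaks and were called mixed. The shares that the lengths of domains and peaks alone would give were not computed. These numbers therefore show no preference of H3K36me2 for domain ends. Most domains, 292 of them, met a single H3K36me2 peak. A further 25 met 2 peaks, 3 met 3, and 1 met 6. The domains made 357 pairs with 331 H3K36me2 peaks, which are 20.4% of the 1626 H3K36me2 peaks on the chromosomes kept. Of these peaks, 20 met 2 domains and 3 met 3 domains, and 49 domains shared a peak with another domain of the set.

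Most of the sequence under the domains carried listed H3K36me3 alone. The shared stretches added up to 4.08 Mb, which is 22.8% of the domains' 17.9 Mb and 37.3% of the 10.95 Mb under the H3K36me2 peaks. In the median domain 24.5% of the length was shared, with quartiles of 8.91% and 69.5%. In 101 domains over 50% was shared, and in 90 domains 10% or less. The 104 inside peaks lay at a median of 12.7 kb from the nearer domain end (quartiles 4.45 and 28.05 kb). Of them, 13 were within 1 kb of it and 28 within 5 kb. The centre of 70 of them (67.3%) fell between 25% and 75% of the domain's length. A peak wholly inside a domain cannot be centred at its end, so part of this share is fixed by the definition. The distances were not compared with random placement.

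The kind of overlap went with domain length, which the definitions partly fix. Only a domain longer than the peak can hold it inside, and only one no longer than the peak can be covered. Domains with inside peaks had a median length of 63.4 kb, edge domains 37.1 kb, covered domains 7.8 kb and mixed domains 134.4 kb. The share of all domains that met H3K36me2 was highest at both ends of the length range. It was 11.3% of 617 domains under 12 kb, 4.97% of 1972 from 12 to 40 kb, 6.34% of 1657 from 40 to 100 kb and 10.7% of 450 of at least 100 kb. These bins held 70, 98, 105 and 48 domains of the set. The median length shared with H3K36me2 was 96.4% of the domain in the shortest bin, 30.0% and 13.2% in the next, and 9.97% in the longest. A peak of a given length takes a larger share of a shorter domain, so this order is also partly built in.

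The rule has a threshold of 1 shared base, and the tables place peaks on a grid of 200 bases. At the inner side of the threshold, 5 domains shared a single window of 200 bases. Among these, a domain at chr10:69905200-69971999 had an H3K36me3 ratio of K36M to WT of 0.226. The domains chr11:48748600-48791799 and chr11:48822200-48863599 had 0.296 and 0.291. At the outer side, the nearest domains without overlap were 400 bases from an H3K36me2 peak. They were chr14:119270600-119324599, chr15:88633000-88659199 and chr2:163646600-163668399, with ratios of 0.226, 0.253 and 0.225. In all, 42 domains outside the set lay within 2 kb of an H3K36me2 peak and 186 within 10 kb.

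All 321 domains had less H3K36me3 in the K36M than in the WT library, by a median factor close to that of the other domains, but with more spread. The median density was 6.02 normalized reads per kb in K36M (quartiles 4.78 and 8.21) and 21.1 in WT (quartiles 16.6 and 25.8). In the other domains it was 5.67 in K36M and 18.8 in WT. The median log2 ratio of K36M to WT was −1.74, or 3.34-fold lower, in the domains with H3K36me2 and −1.73, or 3.31-fold lower, in the others. The middle of the 2 distributions therefore differed by −0.01. Their widths were less alike, with quartiles of −1.94 and −1.5 and an SD of 0.40 over domains with H3K36me2, against −1.86 and −1.58 and an SD of 0.24 over the others. This SD is a spread over regions of 1 library pair, not an error between samples. The direction itself takes the spike-in scaling as given, since the total reads of each library were not among the values used here. Scaling both libraries to equal totals over the listed domains sets the overall difference near 0 by construction. The median of the set was then −0.026. That scaling shifts all regions of a mark alike and leaves the differences between groups of domains as they are.

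The wider spread reached both tails. H3K36me3 was at least 2-fold lower in 294 of the 321 domains (91.6%), against 4352 of the 4375 others (99.5%) and 98.5% of all 4999 listed domains. The 4-fold limit was passed by 55 (17.1%), against 441 of the others (10.1%) and 9.96% of all listed domains. The set thus held larger shares of weakly reduced and of strongly reduced domains than all the others together. Domains outside the set but near H3K36me2 passed 4-fold no less often than the set. They were 9 of the 42 within 2 kb of a peak (21.4%) and 30 of the 144 from 2 to 10 kb (20.8%). Of the domains with a log2 ratio above −1, 27 belonged to the set and 23 to the far more numerous others. Of those 27 domains, 18 were shorter than 12 kb and 16 lay in the runs on chromosomes 4 and 5 described below. The larger share of 4-fold lower domains came from chromosome 15. On that chromosome 34 domains (35.8%) passed 4-fold, against 45 of the others (24.5%), and on the remaining chromosomes the shares were 9.29% (21 domains) and 9.45% (396 domains).

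The side of the overlap went with small differences in the H3K36me3 ratio. Domains with inside peaks had a median log2 ratio of −1.75 (SD 0.33), edge domains −1.76 (SD 0.43), covered domains −1.57 (SD 0.38) and mixed domains −1.89. With inside peaks the median was 5.34 normalized reads per kb in K36M and 18.1 in WT, and edge domains 6.46 and 22.3. Covered domains had 6.12 in K36M and 20.9 in WT. In every class the K36M points lie mostly below the WT points, but in all classes except the mixed one the upper K36M values reach into the WT range.

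**Figure D1:**
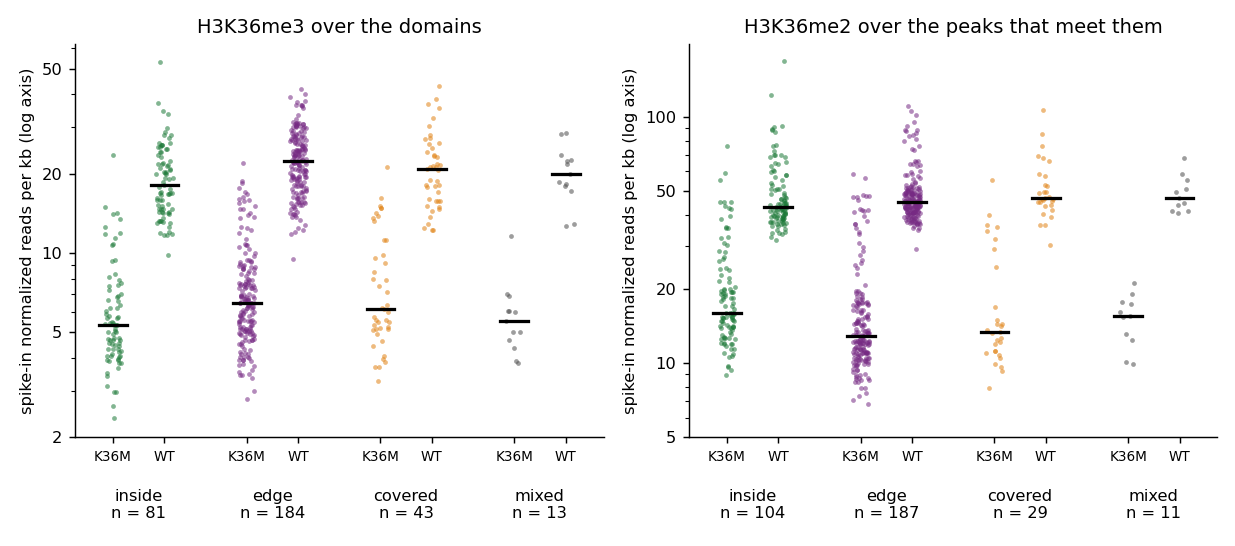
Spike-in normalized reads per kb (log axis) of H3K36me3 over the 321 domains (left) and of H3K36me2 over the 331 peaks that meet them (right), 1 point per region in the K36M and the WT library, by side of overlap, with the median as a bar. In edge regions the median was 6.46 in K36M and 22.3 in WT for H3K36me3, and 12.9 in K36M and 45.2 in WT for H3K36me2.

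Length separated the domains more than side did. The median log2 ratio was −1.38 under 12 kb (quartiles −1.68 and −1.0), −1.74 from 12 to 40 kb, −1.81 from 40 to 100 kb and −1.83 at 100 kb and more. In the other domains the same bins gave −1.64, −1.72, −1.75 and −1.76. Short domains with H3K36me2 were thus reduced less than short domains without it, by 0.26 on the log2 scale, and long ones slightly more, by −0.06 and −0.07. Spearman's rho between length and log2 ratio was −0.40 over the 321 domains and −0.16 over the 4375 others. These points share 1 pair of libraries, and short domains hold fewer reads. Under 12 kb the median was −1.17 in 31 edge domains, −1.18 in 9 with inside peaks and −1.51 in 29 covered ones. With the runs on chromosomes 4 and 5 left out, the 57 remaining domains under 12 kb had a median of −1.5, and rho over the whole set was −0.32.

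**Figure D2:**
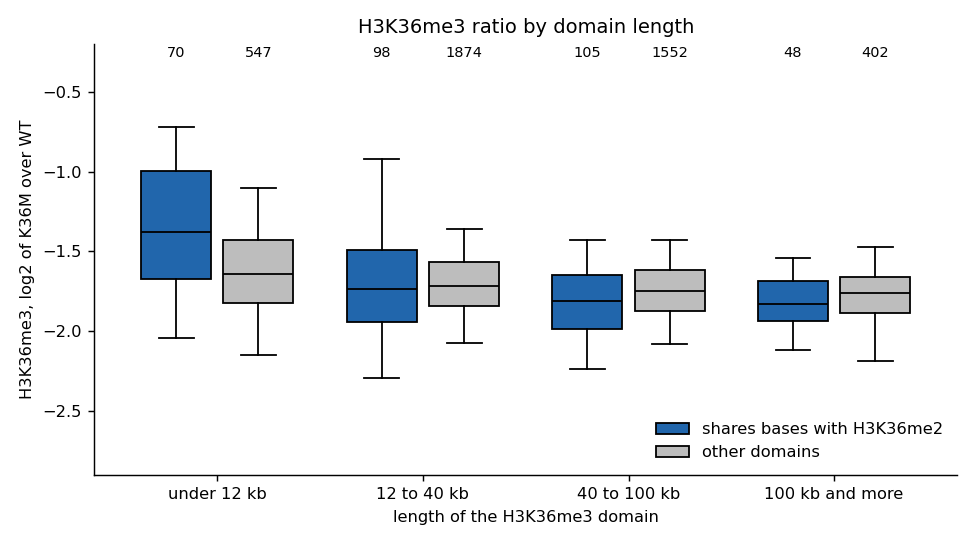
Log2 ratio of H3K36me3 in K36M over WT by domain length, for domains that share bases with H3K36me2 (blue) and other domains (grey); boxes show the median and quartiles, whiskers the percentiles 5 and 95, and the numbers count domains. Under 12 kb the medians were −1.38 and −1.64, and at 100 kb and more −1.83 and −1.76.

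The share of the domain under H3K36me2 followed the same order. Domains with up to 10% of their length shared had a median log2 ratio of −1.80, those with 10 to 50% −1.78 and those with over 50% −1.49. The last group is also the one with most of the short domains, so share and length are not separated here. The 29 domains with at least 2 H3K36me2 peaks had −1.86 and the 292 with 1 peak −1.73. Near but not touching H3K36me2, the ratio was close to that of all others. The 42 domains within 2 kb of a peak had −1.76, the 144 from 2 to 10 kb had −1.80, and the 2961 more than 200 kb away had −1.71.

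The lowest H3K36me3 ratios among the better covered domains, those with a mean of both libraries at or above the set's median, were all on chromosome 15 and all had H3K36me2 at an edge. A domain at chr15:54073200-54109599 had 126 normalized reads in K36M and 1002 in WT, which is 7.94-fold lower (ratio 0.126, interval 0.115 to 0.138). It met 2 H3K36me2 peaks, both at an edge. The peak with the longer overlap had a ratio of 0.175 (log2 −2.51), and the other a log2 ratio of −2.64. A domain of 166 kb at chr15:42806800-42973199 had 558 normalized reads in K36M and 3557 in WT, a ratio of 0.157, and its H3K36me2 peak had nearly the same ratio, 0.158. The other 2, at chr15:41620600-41698599 and at chr15:8582000-8666399, had ratios of 0.161 and 0.192. In each of these 4 regions the H3K36me3 ratio was below that of the H3K36me2 peak with the longest overlap, by very little in the second.

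The highest ratios among the better covered domains also belonged to edge domains, on 4 different chromosomes. The first, at chr5:14970800-14998399, had 438 normalized reads in K36M and 839 in WT, a ratio of 0.522 (0.491 to 0.556). Its H3K36me2 peak of 3.8 kb had a ratio of 0.497. A domain at chr1:90101600-90206799 was shared over 98.6 kb, 93.7% of its length. It had 1487 normalized reads of H3K36me3 in K36M and 3283 in WT, a ratio of 0.453. The H3K36me2 peak over it had 3623 in K36M and 6478 in WT, a ratio of 0.559. The domains chr2:36087200-36115199 and chr17:33369200-33391799 had H3K36me3 ratios of 0.453 and 0.441, with H3K36me2 ratios of 0.456 and 0.433. In 3 of these 4 regions the ratios of both marks differed by less than 0.05, and on chromosome 1 H3K36me2 was the less reduced mark.

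The longest domains lay nearer to the middle of the range. A domain of 331 kb at chr4:57580600-57911599 had 1548 normalized reads in K36M and 6044 in WT, a ratio of 0.256. It met 3 H3K36me2 peaks, 1 at its edge that was 4.05-fold lower and 2 inside that were 2.36-fold and 2.62-fold lower. A domain of 323 kb at chr15:63897800-64221199 had a ratio of 0.344 and an edge peak of H3K36me2 at 0.367. A domain at chr11:86299200-86572599 had a ratio of 0.286 and an H3K36me2 peak inside it at 0.296. The largest shared length was 110.4 kb, in the domain at chr11:117094400-117228799. H3K36me3 had a ratio of 0.269 there, and the longest of its H3K36me2 overlaps had 0.481.

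H3K36me2 differed more clearly between peaks on and off H3K36me3 domains than H3K36me3 did between domains with and without H3K36me2. The 331 peaks that met a domain had a median density of 14.2 normalized reads per kb in K36M and 44.9 in WT. The 1295 peaks off H3K36me3 had 9.81 in K36M and 42 in WT. WT densities were thus similar, and the K36M densities were further apart. The median log2 ratio was −1.64 (3.12-fold lower, quartiles −1.96 and −1.24) in the peaks on H3K36me3 and −2.14 (4.40-fold lower, SD 0.29) in those off it. The SD over the peaks on domains was 0.49. A ratio at least 2-fold lower was seen in 286 of the 331 peaks (86.4%), beside 97% of all 1691 listed peaks. A ratio at least 4-fold lower was seen in 70 of them (21.1%), against 908 of the peaks off H3K36me3 (70.1%) and 59% of all listed peaks. With both libraries scaled to equal totals over all listed H3K36me2 peaks, the median of the peaks on domains would be 0.36.

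Taken as whole classes by side, the peaks inside domains were reduced least, an order that did not hold with stricter overlap (below). The 104 inside peaks had a median log2 ratio of −1.39, or 2.62-fold lower, with a density of 16 in K36M and 43.2 in WT. The 187 edge peaks had −1.80, or 3.49-fold lower, with 12.9 in K36M and 45.2 in WT. The 29 covering peaks and the 11 peaks that met several domains in different ways both had a median of −1.72. At least 4-fold lower H3K36me2 was found in 5 of the inside peaks (4.81%) and 54 of the edge peaks (28.9%). The inside peaks were also shorter, with a median of 8.8 kb against 24.4 kb for edge peaks. Position within the domain went with a small difference, as 70 inside peaks centred between 25% and 75% of the domain had a median of −1.43 and the 34 nearer the ends −1.28.

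With peaks of like length, the gap between inside and edge was small among short peaks and larger among long ones. Under 6 kb the median was −1.24 in 38 inside peaks, −1.36 in 22 edge peaks and −2.17 in 276 peaks off H3K36me3. From 6 to 12 kb it was −1.39, −1.41 and −2.12. From 12 to 40 kb it was −1.41 in 31 inside peaks, −1.80 in 73 edge peaks and −2.12 in 492 peaks off H3K36me3. At 40 kb and more, 7 inside peaks had −1.51, 61 edge peaks −1.95 and 243 peaks off H3K36me3 −2.17. In each length bin the peaks on domains had higher medians than those off them. Spearman's rho between peak length and log2 ratio was −0.40 over the 331 peaks on domains and 0.02 over the 1295 off them.

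Among edge peaks, H3K36me2 was reduced less the more of the peak lay in the domain. Peaks with up to 25% of their length in the domain had a median of −1.98, those with 25 to 75% had −1.64 and those with over 75% had −1.14. The last value is above the −1.39 of inside peaks. The group with over 75% includes peaks of the runs on chromosomes 4 and 5, and its median without them was not computed. Without the runs, 100 inside peaks had −1.42. The groups hold 92, 69 and 43 peaks, and a peak that met several domains can be in more than 1 of them. Spearman's rho between the share of the peak in the domain and its log2 ratio was 0.64 over 210 edge pairs. In 22 edge pairs the whole peak lay in the domain and shared 1 of its ends. These peaks had a median of −1.16 (from −2.40 to −0.61) and a median length of 5.4 kb, and 7 of the 22 were in the runs on chromosomes 4 and 5. Longer edge peaks had more of their length outside, so the share and the length of a peak are not separated in this comparison. The order inside above edge was also seen without chromosome 15, with −1.37 in 81 inside peaks and −1.65 in 119 edge peaks, and on it, with −1.54 in 23 and −1.98 in 68. It turned round when overlaps counted only with at least 50% of the H3K36me2 peak in the domain, to a difference of −0.10 between inside and edge, and with at least 50% of the domain covered, to −0.28.

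**Figure D3:**
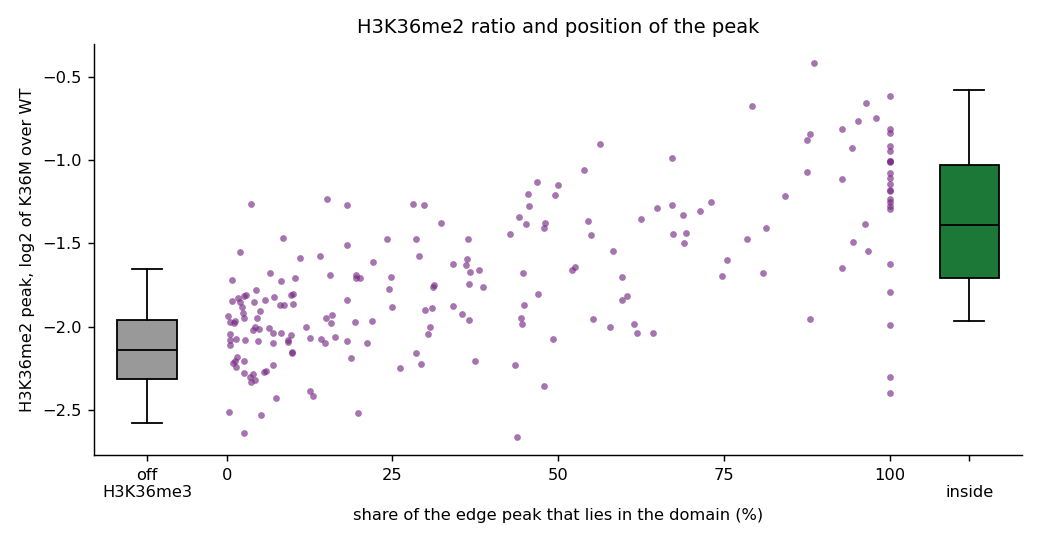
Log2 ratio of H3K36me2 in K36M over WT for 210 edge pairs (purple points) against the share of the H3K36me2 peak that lies in the H3K36me3 domain, between boxes of the peaks off H3K36me3 (grey) and inside domains (green) with medians, quartiles and percentiles 5 and 95. Peaks with up to 25% in the domain had a median of −1.98, near the −2.14 of peaks off H3K36me3, and peaks with over 75% had −1.14.

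Pairs with less reduced H3K36me3 tended to have less reduced H3K36me2. Spearman's rho between both log2 ratios was 0.50 over 357 pairs (Pearson's r 0.57). It was 0.47 for inside, 0.58 for edge and 0.62 for covered pairs, and 0.43 over all pairs without the runs on chromosomes 4 and 5. The pairs share libraries, some share a domain or a peak, and where they overlap both values come from the same sequence. The median difference, H3K36me2 minus H3K36me3, was 0.08 on the log2 scale, with quartiles of −0.20 and 0.35. H3K36me2 was the less reduced mark in 207 of the 357 pairs (58.0%). Both marks have their own antibody and scaling factor, so the zero point of this difference is uncertain, but the order of the pairs is not affected by it. With a pseudocount at percentile 5 of each table the median difference was −0.015, on the other side of 0.

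The difference depended on the kind of overlap. Inside pairs had a median of 0.35, and H3K36me2 was less reduced than the surrounding domain in 84 of 104 (80.8%). Edge pairs had 0.01, with 107 of 210 above 0. Covered pairs had −0.14, with 16 of 43 above 0. With both libraries of each mark scaled to equal totals over its listed regions, these medians were 0.64, 0.30 and 0.15. The sign in covered pairs thus rests on the scaling, while the order of the sides does not. Among inside pairs the difference was larger in longer domains. It was 0.11 under 12 kb (10 pairs), 0.29 from 12 to 40 kb (21 pairs), 0.35 from 40 to 100 kb (37 pairs) and 0.57 at 100 kb and more, where 33 of 36 pairs were above 0. Those 36 pairs came from 27 domains, and pairs of the same domain share its H3K36me3 value.

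**Figure D4:**
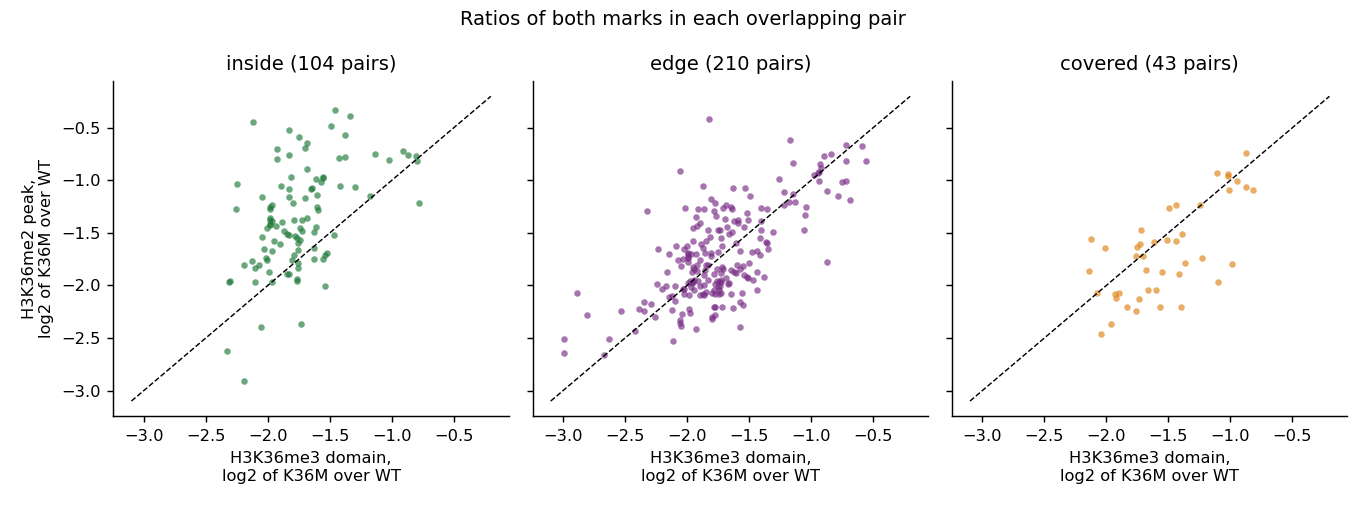
Log2 ratios of K36M over WT for the H3K36me3 domain (horizontal) and the H3K36me2 peak (vertical) of each overlapping pair, by side of overlap; the dashed line marks equal ratios. Of the inside pairs 84 of 104 lie above the line, of the edge pairs 107 of 210 and of the covered pairs 16 of 43.

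A single domain on chromosome 11 showed the pattern within 235 kb. It spanned chr11:107973800-108208599, had 1021 normalized reads of H3K36me3 in K36M and 4028 in WT, and was 3.94-fold lower. It held 6 H3K36me2 peaks, more than any other domain of the set, over 99.2 kb. The 5 inside peaks were 2.39-fold to 2.66-fold lower. The sixth peak, chr11:108206400-108243599 at the domain's end, had 368 normalized reads in K36M and 1767 in WT and was 4.81-fold lower. Only 2.2 kb of this last peak lay in the domain. The inside peaks, from 2.6 to 30.4 kb long, were thus closer to each other than any of them was to the edge peak.

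Among the better covered domains, the largest differences between the marks were in long ones. A domain of 258 kb at chr15:76879600-77137199 had 1288 normalized reads of H3K36me3 in K36M and 5592 in WT, a ratio of 0.230. Inside it, a peak at chr15:76956000-76970199 had 377 normalized reads of H3K36me2 in K36M and 514 in WT, a ratio of 0.733 (0.652 to 0.825). The peaks at both ends of the same domain were 4.28-fold and 4.69-fold lower. A domain at chr1:33777800-33872399 had an H3K36me3 ratio of 0.283 and an edge peak of H3K36me2 at 0.749 (0.712 to 0.788). At chr14:26277400-26492999 and at chr17:3327000-3554599, the domains had ratios of 0.281 and 0.264. H3K36me2 peaks of 6 and 3.6 kb inside them had ratios of 0.698 and 0.617.

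H3K36me2 was also the less reduced mark in the remaining domains named for several or long overlaps. At chr11:119567000-119762199, H3K36me3 was 3.55-fold lower, and the 3 peaks inside were 2.86-fold, 2.23-fold and 1.69-fold lower. At chr15:59267400-59406599, H3K36me3 had a ratio of 0.279 and H3K36me2, over an inside peak of 96.8 kb, a ratio of 0.351 (0.334 to 0.369).

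Among the better covered domains, 4 were named for the opposite order, with H3K36me2 reduced more than the domain. A pair of them on chromosome 10 was covered by H3K36me2. They lay at chr10:83270000-83361799 and at chr10:83504600-83578399, under 1 H3K36me2 peak of 363 kb, and had H3K36me3 ratios of 0.338 and 0.380. The peak over them, at chr10:83255200-83617799, had 5226 normalized reads of H3K36me2 in K36M and 24045 in WT, a ratio of 0.217. The other 2 held inside peaks of few reads. At chr11:67439600-67501599 the domain had a ratio of 0.218 and its peak of 1.2 kb a ratio of 0.133 (0.085 to 0.205). At chr16:93712400-93786799 the ratios were 0.300 for the domain and 0.194 (0.130 to 0.283) for a peak of 1.6 kb.

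The domains were not spread evenly over the chromosomes. Chromosome 15 held 95 of the 321, which is 29.6% of the set and 34.1% of that chromosome's 279 domains. It also held the most listed H3K36me2 peaks, 291 of the 1626 on the chromosomes kept. Chromosome 10 came next with 170 peaks and held 18 domains of the set. Chromosome 11 held 52 (12.7% of its domains), chromosome 4 held 26, chromosome 17 held 22 and chromosome 1 held 19. Chromosomes 3 and 7 held none, with 30 and 20 listed H3K36me2 peaks. For chromosome 15 alone, the median log2 ratio of H3K36me3 was −1.92 in the domains with H3K36me2 and −1.87 in the others. On all other chromosomes together it was −1.66 in 226 domains with H3K36me2 and −1.72 in 4191 others, so the sign of the small difference depends on chromosome 15. Weighted over length bins it was 0.023 with chromosome 15 kept. On chromosome 11 the medians were −1.78 and −1.82.

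Runs of neighbouring domains on chromosomes 4 and 5 stood apart. They were found after the values were seen, as runs of at least 5 domains less than 1 Mb apart with a median log2 ratio above −1, so their high ratios are a description. The run at chr4:144994200-147169999 held 11 domains with a median of −0.87 (from −1.13 to −0.56). Their median H3K36me3 density was 13.3 normalized reads per kb in K36M and 23.5 in WT. The 11 H3K36me2 peaks on them had a median of −0.77. The run at chr5:14922800-15202599 held 8 domains with a median of −0.93 (from −1.04 to −0.72) and a density of 15.7 in K36M and 28.6 in WT. Its 9 H3K36me2 peaks had a median of −1.01, and their density of 40 in K36M and 85.2 in WT was far above that of the median peak on domains. Both marks were thus reduced about 2-fold in these runs. Domains in the runs were short, with a median length of 9.8 kb on chromosome 4 and 7.8 kb on chromosome 5. Without them the remaining 302 domains had a median of −1.76 and an SD of 0.35, still wider than that of the other domains.

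**Figure D5:**
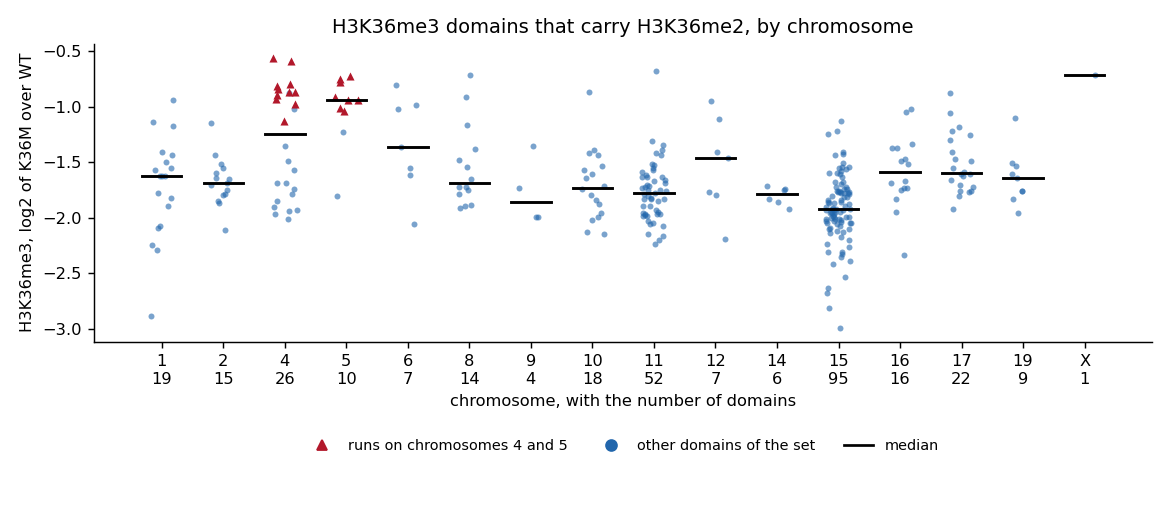
Log2 ratio of H3K36me3 in K36M over WT for each of the 321 domains by chromosome, with the median as a bar and the number of domains under each name; red triangles are the 19 domains of the runs on chromosomes 4 and 5. The runs had medians of −0.87 and −0.93, and the 95 domains of chromosome 15 had −1.92.

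Runs elsewhere had values in the usual range. At chr15:75868800-83338199, 22 domains had a median of −1.90. At chr11:115243400-117907999, 14 domains had −1.79, and at chr11:119045200-121594799, 13 domains had −1.63.

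H3K27me3, written by Polycomb repressive complex 2 over silenced genes, is usually kept apart from H3K36 methylation, which hinders that complex on the same histone tail. Of the 321 domains, 24 (7.48%) shared at least 1 base with a listed H3K27me3 peak, against 21 of the 4375 others (0.48%). Within 10 kb of such a peak were 33 domains (10.3%), against 189 of the others (4.32%). These counts include the 24 and the 21 domains that share bases. The larger share of the set within 10 kb came from the 24. The 24 domains had a median H3K36me3 log2 ratio of −1.14, or 2.20-fold lower, and the 297 domains of the set without H3K27me3 −1.76. The 21 other domains on H3K27me3 had −1.45. The 24 domains were also shorter, with a median length of 10.9 kb against 40 kb for the 297. Length and H3K27me3 are thus not separated in this comparison. Of the 24 domains, 18 lay outside the runs on chromosomes 4 and 5.

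The H3K27me3 peaks on these domains were mostly higher in K36M. Their median density was 14.8 normalized reads per kb in K36M and 11.3 in WT, beside 8.43 in K36M and 9 in WT over all 999 listed H3K27me3 peaks. Of the 23 peaks, 18 were higher in K36M, against 37.5% of all listed peaks. Their median log2 ratio was 0.61, from −0.29 to 1.23, and that of all listed peaks was −0.08. Every H3K27me3 peak on the runs on chromosomes 4 and 5 was higher in K36M, with log2 ratios from 0.59 to 1.23. The runs thus raise both the median of 0.61 and the share of peaks higher in K36M. Outside the runs the log2 ratios went from −0.29 to 1.15, and their median was not computed. The highest ratio of H3K27me3 was at chr5:15018400-15026199, where the domain was 1.69-fold lower in H3K36me3. The H3K27me3 peak on it had 205 normalized reads in K36M and 87.1 in WT, a ratio of 2.35 (2.09 to 2.64). The domain at chr6:23106000-23115999 was 1.75-fold lower in H3K36me3, and its H3K27me3 peak had a ratio of 1.96 (1.72 to 2.24). The domain at chr16:3231600-3243999, which shared 11400 bases with H3K27me3, was 2.02-fold lower in H3K36me3. On chromosome 15 the picture differed, as a single H3K27me3 peak over 3 short domains between 77455400 and 77496999 had a ratio of 0.977 (0.946 to 1.01), while the domains were 2.33-fold to 2.70-fold lower.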

How the data were processed

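ChIP-Rx signal was deposited by the authors as 1 table per mark, with 1 value per peak for K36M and 1 for WT, and per the file headers these are reads scaled to the Drosophila spike-in. The submitters' processing notes name Bowtie 1.0.0, mm9 and dm6. How peaks were called and the scaling formula computed is not given in the sources used here, nor whether the lists are complete, so counts describe listed peaks. The inputs were not analysed here.

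Each column's values are whole multiples of 1 step, for H3K36me3 0.22 in K36M and 0.39 in WT, for H3K36me2 0.52 in K36M and 1.08 in WT, and for H3K27me3 0.26 in K36M and 0.18 in WT. Values divided by the step were used as reads for Clopper-Pearson 95% intervals. Reads in peaks numbered 6095048 in K36M and 11294217 in WT for H3K36me3, with 915902 in K36M and 1770960 in WT for H3K36me2. These reads carry no molecular identifiers.

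Ratios are K36M over WT with no pseudocount and no filter. With 1 library per group there is no test. Named regions are, among domains with a mean at or above the set's median, the 4 lowest and 4 highest ratios and the 4 highest and 4 lowest differences between marks in the longest overlap. They also include the 4 longest domains, the 4 with most shared bases, the 3 with most peaks and the 3 nearest the threshold on each side. H3K27me3 examples were chosen after their values were seen. The members and lists were chosen with earlier results of these data known. Overlaps and ratios were tested on simulated data. Computations used Python 3.11.15, numpy 2.4.6, pandas 2.3.3 and scipy 1.17.1, and figures matplotlib 3.10.9.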

Additional observations from a re-analysis of the deposited data

How the results depend on the processing

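Of 363 alternative values, 254 moved by no more than the half-width of a 95% interval over regions, which treats regions as independent (for a count, by no more than 1.5 times). The cause of the other moves was not tested, unless the alternative's own construction gives it. Where the reported value exceeded its half-width, the sign changed in 5 alternatives of main results and in 5 of other results. No paired analysis was possible because each group has 1 library, and no replicate could be left out. Scaling both libraries to equal totals over the listed regions of a mark sets the overall difference near 0 by construction. The set's H3K36me3 median became −0.026, with 3 domains 2-fold lower and 0 at 4-fold, 0.34 under 12 kb and 0.15 in covered domains. Its H3K36me2 medians became 0.36 in all, 0.61 inside, 0.20 at edges and 0.28 for covering peaks, and the pair difference 0.37 (0.64 inside, 0.30 at edges and 0.15 in covered pairs). A pseudocount at percentile 5 gave −1.51, 16 domains at 4-fold, a gap between shortest and longest domains of 1.07 (0.45 without it), H3K36me2 at −1.44, a pair difference of −0.015 and a rho of 0.33. Keeping regions with a mean at or above the table's median left 171 domains, 169 at 2-fold and 4 on H3K27me3, with −1.81, a difference from others of −0.068, H3K36me2 at −1.74 and a pair difference of 0.14.

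Stricter overlap moved the inside minus edge difference in H3K36me2, 0.41 by the 1-base rule. It was 0.18 with 10% of the domain covered, −0.28 with 50% of the domain covered, and −0.10 with 50% of the peak in the domain. It was 0.055 among peaks under 12 kb, a limit chosen after seeing the data. With 10% of the domain covered the set's median was −1.69, the difference from others 0.044, H3K36me2 −1.56, and 33 domains passed 4-fold. With 50% of the domain covered, 98 domains gave −1.43, a difference of 0.30, H3K36me2 at −1.5, a pair difference of −0.019, a rho of 0.76, and 77 and 9 domains past 2-fold and 4-fold. With 50% of the peak in the domain, 169 domains gave −1.70, a difference of 0.028, a length gap of 0.84, H3K36me2 at −1.34, a pair difference of 0.25, and 144 and 25 domains past 2-fold and 4-fold. Without chromosome 15 the median was −1.66, the difference 0.058, H3K36me2 −1.52, and 21 domains passed 4-fold. Matched by length bin the difference was 0.023. Within 50 kb of H3K27me3 were 53 domains. Without the runs on chromosomes 4 and 5, left out after seeing the data, the set's median was −1.76.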
